A study of Mus musculus with 15 samples.

Results

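The genes examined were the 10 that mark early B lymphoid specification and immunoglobulin gene recombination, out of 45706 genes in the count table: Ebf1, Pax5, Foxo1, Lef1, Il7r, Rag1, Rag2, Dntt, Ly6d and Arpp21. They were chosen by name, through the GENCODE symbols of their Ensembl identifiers, and all 10 passed the filter on low counts that left 18983 genes for testing. RNA came from lineage-negative (Lin-) bone marrow (BM) cells taken from the femurs of mice that were second recipients in a serial transplantation of LSK cells, the fraction that holds the stem and early progenitor cells. Donor cells were WT (3 libraries), Puma-/- (4 libraries), G3 mTerc-/-Puma+/+ (4 libraries) or G3 mTerc-/-Puma-/- (4 libraries), where mTerc encodes the RNA component of telomerase, G3 is the third generation bred without it, and Puma (gene symbol Bbc3) encodes a pro-apoptotic protein of the BCL-2 family. All 4 groups had been transplanted in the same serial way into congenic hosts, and the labels give no step that removed host cells. The deletions are constitutive, the age of the mice is not given by the labels, and the study compared the genotypes to learn how loss of PUMA affects hematopoiesis when telomeres are short. Mature cells were removed by magnetic depletion with an antibody mix that included one against B220, so B lineage cells already carrying that surface protein were mostly removed and the measured B lineage RNA is that left in the depleted fraction.

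B lymphocytes develop from lymphoid-primed progenitors in the BM. Interleukin 7 signals through its receptor (Il7r), and the transcription factors E2A, FOXO1 and EBF1 switch on early B lineage genes, after which PAX5 commits the cells to the B lineage. RAG1 and RAG2 then cut immunoglobulin gene segments, and terminal transferase (Dntt) adds nucleotides at the joins. Ly6d, a surface protein, marks lymphoid progenitors biased to the B lineage, and plasmacytoid dendritic cells, which share part of this programme, also express several of these genes.

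Library totals ranged from 102790519 to 158367059 counts, with a median of 112046464. Levels are given as CPM, the counts of a gene scaled by its library's total after that total is adjusted by a normalization factor (TMM). The labels do not say that the libraries came from separate mice, and p-values then measure only the spread between these libraries. Terc had 4 to 17 counts in the WT and Puma-/- libraries and 0 or 1 in the mTerc-/- libraries. Bbc3 was at 9.76 to 23.6 CPM in WT and 5.03 to 6.77 CPM in Puma-/- libraries, but at 13.7 to 17.3 CPM in those labelled G3 mTerc-/-Puma-/-, beside 11.8 to 20.7 CPM in G3 mTerc-/-Puma+/+. The Bbc3 level thus goes against the Puma-/- part of that label, so these are called the double-knockout-labelled libraries. Among them, replicate 2 stood apart: the study did not draw it in its heatmaps, and it was left out of the main tests (14 libraries) and added back in a second fit (15 libraries). Cell sex, read from Xist and Ddx3y, differed between groups. Xist was at 464 to 861 CPM in Puma-/- and at 0.174 to 89.4 CPM in G3 mTerc-/-Puma+/+ libraries. In replicates 1, 3 and 4 of the double-knockout label it was at 669, 0.388 and 450 CPM, and in replicate 2 at 88.4 CPM. Some libraries held both RNAs, such as WT replicate 1 (Xist 419 and Ddx3y 21.4 CPM) and G3 mTerc-/-Puma+/+ replicate 3 (89.4 and 47.8 CPM). The part of cell sex in the differences below was tested only as a covariate. Kit and Cd34, which mark the Lin- progenitors, were present in every library (Kit at 144 CPM in replicate 2 of the double-knockout label).

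All 10 genes had their highest mean in the double-knockout-labelled libraries and their second highest in Puma-/- when 14 libraries were used. The lowest mean was in G3 mTerc-/-Puma+/+ for 7 genes and in WT for Rag1, Rag2 and Dntt. Against G3 mTerc-/-Puma+/+, the 3 double-knockout-labelled libraries were higher for 10 of 10 genes with no overlap between the groups, beside 3.26% of all genes tested that were higher without overlap. Ly6d (3.62-fold) and Arpp21 (3.42-fold) passed the test of edgeR after adjustment over all genes, and the other 8 did not. That is 2 of 10 genes, where 0.0738% of all genes (14) were called in either direction. DESeq2 called 7 of the 10 beside 0.908% of all genes with an adjusted p, and limma-voom 2 beside 0.0632%. At an unadjusted p under 0.05, 10 of 10 were higher beside 4.37% of all genes. The median log2 fold change over the 10 genes was 1.71, beside -0.015 over all genes tested. In bulk RNA, fewer cells of a type and less RNA per cell cannot be told apart.

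Adding replicate 2 of the double-knockout label ended both calls. With 15 libraries, 0 of 10 genes passed in edgeR (0.0313% of all genes did), 0 passed in limma-voom (0.0104% of all genes) and 3 passed in DESeq2 (Ebf1, Pax5 and Lef1), beside 1.66% of all genes. At an unadjusted p under 0.05, 7 of 10 were higher in edgeR beside 7.84% of all genes, and 3 of 10 (Ebf1, Lef1 and Il7r) were above G3 mTerc-/-Puma+/+ without overlap beside 2.09% of all genes. The median over the 10 genes was then 1.44 on the log2 scale.

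**Figure D1:**
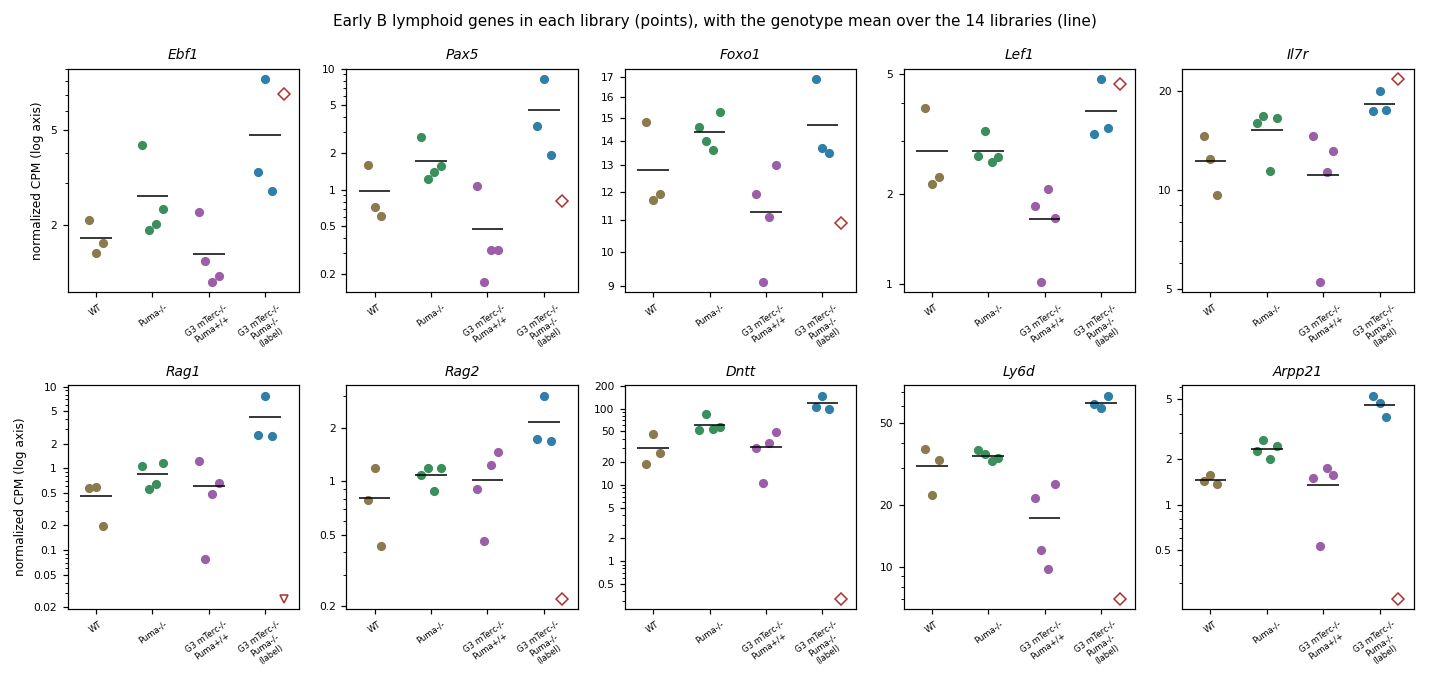
Normalized CPM (log axis) of the 10 genes in each of the 15 libraries by genotype, with the genotype mean over the 14 libraries as a line. The open red symbol is replicate 2 of the double-knockout label (a triangle where it had 0 counts, drawn at the level of 3 counts); the 3 filled points of that group lie above every G3 mTerc-/-Puma+/+ point in all 10 panels.

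Among the transcription factors, Ebf1 (ENSMUSG00000057098, chr11:44617317-45008091, plus strand, GRCm38), the factor that starts the B lineage programme, was at 2.09, 1.52 and 1.67 CPM in WT and at 4.34, 1.90, 2.02 and 2.32 CPM in Puma-/- libraries. It was at 2.26, 1.41, 1.15 and 1.22 CPM in G3 mTerc-/-Puma+/+, and at 3.34, 8.21 and 2.76 CPM in replicates 1, 3 and 4 of the double-knockout label, with 7.09 CPM in replicate 2. The double-knockout-labelled libraries lay above all G3 mTerc-/-Puma+/+ and WT libraries with or without replicate 2, and overlapped Puma-/- only through Puma-/- replicate 1. The difference from G3 mTerc-/-Puma+/+ was 1.65 ± 0.390 on the log2 scale (SE, 3 against 4 libraries) and did not pass (edgeR, adjusted p = 0.179), and it was 1.83 ± 0.38 with 15 libraries (edgeR, adjusted p = 0.139). Without replicate 3 of the double-knockout label it was 1.0. The 3 libraries with the most Ebf1, replicates 3 and 2 of the double-knockout label and Puma-/- replicate 1, were also the 3 highest for the stromal gene Cxcl12, at 910, 1400 and 665 CPM beside 200 to 373 CPM in the other 12. The summed stromal and endothelial list was at 1690, 2670 and 1320 CPM there, and at 3070 CPM in G3 mTerc-/-Puma+/+ replicate 1, where Ebf1 was at 2.26 CPM. In WT libraries this sum reached 1590 CPM, with Ebf1 at 1.52 to 2.09 CPM. The part of stromal RNA in the Ebf1 level was not tested.

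Pax5 (ENSMUSG00000014030, chr4:44524757-44710487, minus strand), which commits cells to the B lineage, was at 1.61, 0.721 and 0.612 CPM in WT and at 2.71, 1.23, 1.41 and 1.56 CPM in Puma-/- libraries. In G3 mTerc-/-Puma+/+ it was at 1.07, 0.174, 0.320 and 0.318 CPM, while the double-knockout-labelled libraries gave 3.36, 8.28 and 1.94 CPM for replicates 1, 3 and 4 and 0.808 CPM for replicate 2. Pax5 had the largest fold difference of the 10 genes, with G3 mTerc-/-Puma+/+ below every Puma-/- library and replicate 2 falling among the G3 mTerc-/-Puma+/+ and WT values. The log2 difference was 3.25 ± 0.617, a 9.52-fold difference that missed the threshold (edgeR, adjusted p = 0.0773), and 2.92 ± 0.689 with 15 libraries (edgeR, adjusted p = 0.191). Without G3 mTerc-/-Puma+/+ replicate 1 it passed, at a log2 difference of 4.05, and without replicate 3 of the double-knockout label the difference was 2.47 and did not pass.

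Foxo1 (ENSMUSG00000044167, chr3:52268336-52353221, plus strand), a forkhead factor needed for Il7r and Rag expression, had the smallest fold difference of the 10. It was at 14.8, 11.7 and 11.9 CPM in WT, at 14.6, 14, 13.6 and 15.3 CPM in Puma-/-, and at 11.9, 9.13, 11.1 and 13 CPM in G3 mTerc-/-Puma+/+ libraries. Replicates 1, 3 and 4 of the double-knockout label had 16.9, 13.7 and 13.5 CPM, just above the highest G3 mTerc-/-Puma+/+ library, and replicate 2 had 10.9 CPM, inside the G3 mTerc-/-Puma+/+ range. The log2 difference of 0.38 ± 0.131 did not pass (edgeR, adjusted p = 0.527), nor did that of 0.29 ± 0.138 with 15 libraries (edgeR, adjusted p = 0.507).

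Lef1 (ENSMUSG00000027985, chr3:131110471-131224356, plus strand), a partner of the WNT pathway that supports pro-B cell survival and growth, was at 3.87, 2.16 and 2.27 CPM in WT and at 2.68, 3.24, 2.55 and 2.65 CPM in Puma-/- libraries. It was at 1.82, 1.02, 2.08 and 1.66 CPM in G3 mTerc-/-Puma+/+, and at 3.17, 4.83 and 3.30 CPM in replicates 1, 3 and 4 of the double-knockout label, with 4.65 CPM in replicate 2. All G3 mTerc-/-Puma+/+ libraries were below all WT and Puma-/- libraries, and replicate 2 stood with its own group here. The log2 difference was 1.19 ± 0.258 with 14 libraries and 1.28 ± 0.248 with 15, and neither passed (edgeR, adjusted p = 0.122 and 0.119).

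Il7r (ENSMUSG00000003882, chr15:9505788-9530176, minus strand), the receptor chain for interleukin 7, was at 14.6, 12.4 and 9.62 CPM in WT, at 16.0, 16.8, 11.4 and 16.6 CPM in Puma-/-, and at 14.6, 5.25, 11.3 and 13.1 CPM in G3 mTerc-/-Puma+/+ libraries. The double-knockout-labelled libraries had 17.4, 20.0 and 17.5 CPM in replicates 1, 3 and 4 and 21.8 CPM in replicate 2. All of these, replicate 2 included, were above every library of the other 3 genotypes. The difference from G3 mTerc-/-Puma+/+ was 0.72 ± 0.263 on the log2 scale and did not pass (edgeR, adjusted p = 0.588), nor did that of 0.80 ± 0.247 with 15 libraries (edgeR, adjusted p = 0.301).

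Of the recombination genes, Rag1 (ENSMUSG00000061311, chr2:101638282-101649501, minus strand) and Rag2 (ENSMUSG00000032864, chr2:101624718-101632529, plus strand) lie 5752 bases apart and point towards each other. Rag1 was at 0.574, 0.599 and 0.195 CPM in WT, at 1.08, 0.564, 0.652 and 1.15 CPM in Puma-/-, and at 1.22, 0.0774, 0.479 and 0.656 CPM in G3 mTerc-/-Puma+/+ libraries. Replicates 1, 3 and 4 of the double-knockout label had 2.55, 7.80 and 2.51 CPM, all above the other 3 genotypes. Replicate 2 had 0 counts, which allows a level of up to 0.0255 CPM (3 counts, counting error only). The log2 difference from G3 mTerc-/-Puma+/+ was 2.81 ± 0.657 (edgeR, adjusted p = 0.175), and with replicate 2 it was 2.40 with an SE of 1.05 (edgeR, adjusted p = 0.452). Without replicate 3 it was 2.04.

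Rag2 was at 0.791, 1.18 and 0.435 CPM in WT, at 1.08, 1.18, 0.884 and 1.19 CPM in Puma-/-, and at 0.902, 0.464, 1.24 and 1.45 CPM in G3 mTerc-/-Puma+/+ libraries. It was at 1.73, 3.02 and 1.68 CPM in replicates 1, 3 and 4 of the double-knockout label and at 0.221 CPM in replicate 2, so that this group held both the highest and the lowest Rag2 values. The log2 difference was 1.08 ± 0.371 (edgeR, adjusted p = 0.518), and 0.71 ± 0.545 with replicate 2 (edgeR, adjusted p = 0.723).

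Dntt (ENSMUSG00000025014, chr19:41029275-41059525, plus strand) was at 19.0, 46.7 and 26.1 CPM in WT, at 52.1, 83.9, 53.2 and 57.1 CPM in Puma-/-, and at 30.8, 10.7, 35.1 and 48.7 CPM in G3 mTerc-/-Puma+/+ libraries. Replicates 1, 3 and 4 of the double-knockout label had 104, 148 and 100 CPM, and replicate 2 had 0.323 CPM (38 counts). The 3 libraries stood above all others and replicate 2 below all others, while all G3 mTerc-/-Puma+/+ libraries were below all Puma-/- libraries. The log2 difference from G3 mTerc-/-Puma+/+ was 1.91 ± 0.396 without replicate 2 (edgeR, adjusted p = 0.111) and 1.49 ± 0.902 with it (edgeR, adjusted p = 0.620).

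The windows of 250 bases before the RefSeq start (GRCm38.p6) were read for the 9 members with an entry, Ly6d having none, and searched on both strands for CCCNNGGG (bound by EBF factors), CAGGTG and CAGCTG (E-boxes of the E2A type) and TGTTTAC (forkhead). Rag1 is shown because it holds both E-boxes side by side, Foxo1 because it is the member with a CCCNNGGG match, and Dntt as a member that holds none of the 4. Ebf1, Pax5, Il7r and Rag2 also hold none, and Dntt ranged from 0.323 to 148 CPM between libraries. Capitals mark the matches, which do not overlap, and each is written 5′ to 3′ on the gene's own strand at chr2:101649533-101649782 (minus), chr3:52268087-52268336 (plus) and chr19:41029025-41029274 (plus).
Rag1: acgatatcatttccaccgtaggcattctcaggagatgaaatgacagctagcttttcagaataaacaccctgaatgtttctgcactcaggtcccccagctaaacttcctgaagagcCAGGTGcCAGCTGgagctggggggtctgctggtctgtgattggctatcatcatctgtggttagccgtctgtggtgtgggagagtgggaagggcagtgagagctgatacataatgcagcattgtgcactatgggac
Foxo1: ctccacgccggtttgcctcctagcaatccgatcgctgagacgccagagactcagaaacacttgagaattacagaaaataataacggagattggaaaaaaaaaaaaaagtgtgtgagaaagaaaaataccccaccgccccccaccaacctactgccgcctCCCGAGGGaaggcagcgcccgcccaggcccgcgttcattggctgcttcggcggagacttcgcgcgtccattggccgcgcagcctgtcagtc
Dntt: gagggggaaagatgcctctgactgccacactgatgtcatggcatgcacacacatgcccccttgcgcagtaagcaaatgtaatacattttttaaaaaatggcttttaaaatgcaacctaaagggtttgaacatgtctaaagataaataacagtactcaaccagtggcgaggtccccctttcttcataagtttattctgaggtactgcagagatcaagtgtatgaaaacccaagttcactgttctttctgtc
Over the 21 windows of these 9 genes (9 of them alternative starts of Arpp21, some overlapping), CCCNNGGG was in 1 and TGTTTAC in 0, beside 11.8% and 3.17% of 32851 windows of all genes. CAGGTG was in 5 windows, those of Rag1 and Arpp21, beside 17.2% of all, and CAGCTG was in 5, those of Rag1, Lef1 and Arpp21, beside 13% of all. A match describes the letters of the window and is not a measured binding site.

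The 2 genes that passed were the surface and cytoplasmic markers. Ly6d (ENSMUSG00000034634, chr15:74762056-74763620, minus strand) was at 37.2, 22.2 and 33.1 CPM in WT and at 36.8, 35.3, 32.7 and 33.6 CPM in Puma-/- libraries. It was at 21.6, 12.1, 9.73 and 25.3 CPM in G3 mTerc-/-Puma+/+, and at 61.3, 58.6 and 67.6 CPM in replicates 1, 3 and 4 of the double-knockout label. These 3 were above all other libraries, and replicate 2, at 7.03 CPM, was below all others. Ly6d rose by 1.86 ± 0.265 on the log2 scale against G3 mTerc-/-Puma+/+ (edgeR, adjusted p = 0.0231), and the difference was 1.5 ± 0.489 with 15 libraries (edgeR, adjusted p = 0.320). The call was lost when replicate 1, 3 or 4 of the double-knockout label, G3 mTerc-/-Puma+/+ replicate 2, or Puma-/- replicate 2, 3 or 4 was left out (0 or 1 of the 10 genes passing then), at log2 differences of 1.66 to 2.10 over all 14 single omissions.

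Arpp21 (ENSMUSG00000032503, chr9:112065091-112235938, minus strand), a cyclic AMP-regulated phosphoprotein gene that is switched on in early B lineage cells, was at 1.43, 1.56 and 1.37 CPM in WT and at 2.26, 2.67, 2.02 and 2.44 CPM in Puma-/- libraries. It was at 1.51, 0.532, 1.76 and 1.56 CPM in G3 mTerc-/-Puma+/+, and at 5.29, 4.69 and 3.82 CPM in replicates 1, 3 and 4 of the double-knockout label, with 0.238 CPM in replicate 2. Without replicate 2 the order was clear of overlap, with G3 mTerc-/-Puma+/+ below Puma-/- and Puma-/- below the double-knockout-labelled libraries. Arpp21 rose by 1.78 ± 0.291 on the log2 scale against G3 mTerc-/-Puma+/+ (edgeR, adjusted p = 0.0468), near the threshold, and the difference with 15 libraries was 1.39 ± 0.592 (edgeR, adjusted p = 0.436). It kept its call in 1 of 14 single omissions, that of G3 mTerc-/-Puma+/+ replicate 2, at differences of 1.51 to 1.93.

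**Figure D2:**
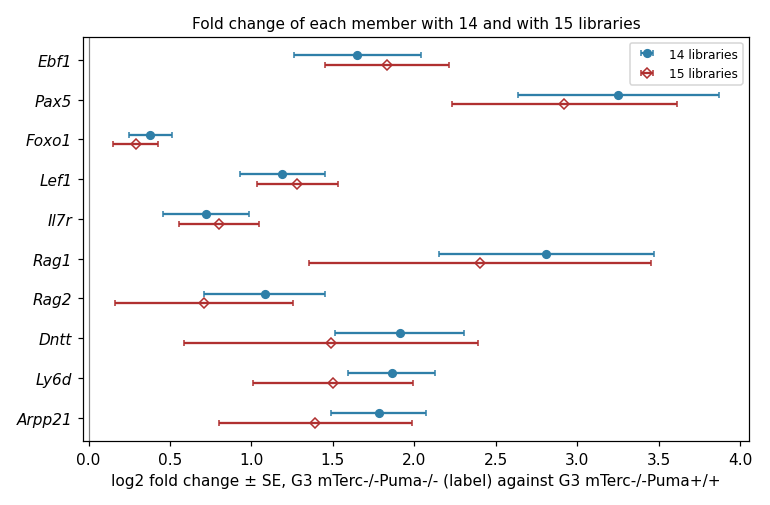
Log2 fold change of each gene, double-knockout-labelled libraries against G3 mTerc-/-Puma+/+, with its SE, for 14 libraries (filled) and for 15 libraries (open). All 10 values lie above 0 in both fits, from 0.38 (Foxo1) to 3.25 (Pax5) with 14 libraries, and the SE of Dntt goes from 0.396 to 0.902 when replicate 2 is added.

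Levels per kilobase of exon differed widely between the genes. In replicates 1, 3 and 4 of the double-knockout label, Ly6d averaged 84.0 and Dntt 51.3 CPM per kilobase, Il7r 3.92 and Foxo1 1.70, and the other 6 were at 0.264 (Arpp21) to 0.649 (Rag1) CPM per kilobase. Part of the exon bases of 6 genes also belongs to genes on the opposite or the same strand (13.7% for Lef1, 8.60% for Pax5, 7.78% for Foxo1, 6.07% for Rag2, 3.33% for Arpp21 and 1.21% for Rag1), and the strand setting of the count is not given in the sources used here, so reads from those bases cannot be told apart.

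Replicate 2 of the double-knockout label split the 10 genes. It held Ebf1, Lef1 and Il7r as high as the other libraries of its group, but Rag1, Rag2, Dntt, Ly6d and Arpp21 were lower there than the group's other libraries by far, with Rag1 and Dntt at or near 0. In the same library Siglech, which marks plasmacytoid dendritic cells, was at 0.128 CPM beside 41.3 to 50.7 CPM in replicates 1, 3 and 4, Irf8 at 31.1 CPM beside 694 to 874 CPM, and Flt3, the receptor of lymphoid-primed progenitors, at 3.41 CPM beside 139 to 170 CPM. Its stromal gene Cxcl12 was at 1400 CPM beside 310 to 910 CPM, and summed erythroid markers at 1270 CPM beside 312 to 367 CPM. Summed innate lymphoid and NK cell genes were at 653 CPM beside 381 to 512 CPM, and summed T cell genes at 256 CPM beside 153 to 274 CPM. Siglech was picked after its values were seen, and the part of these markers in the levels of the 10 genes was not tested.

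Single libraries also weighed in the other groups. G3 mTerc-/-Puma+/+ replicate 2 was the lowest of its genotype for 8 of the 10 genes, the exceptions being Ebf1 and Ly6d. Replicate 3 of the double-knockout label was the highest of the 3 for 7 of the 10, and leaving it out lowered the median log2 difference from 1.71 to 1.35. Over all 14 libraries the 45 pairs of genes had Pearson correlations of log2 CPM from 0.495 to 0.944 (median 0.776), and after subtracting the genotype means 43 of 45 were still above 0, with a median of 0.501. With replicate 2 added, the lowest was -0.202. These points share their libraries, so the correlations are given as a description.

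**Figure D3:**
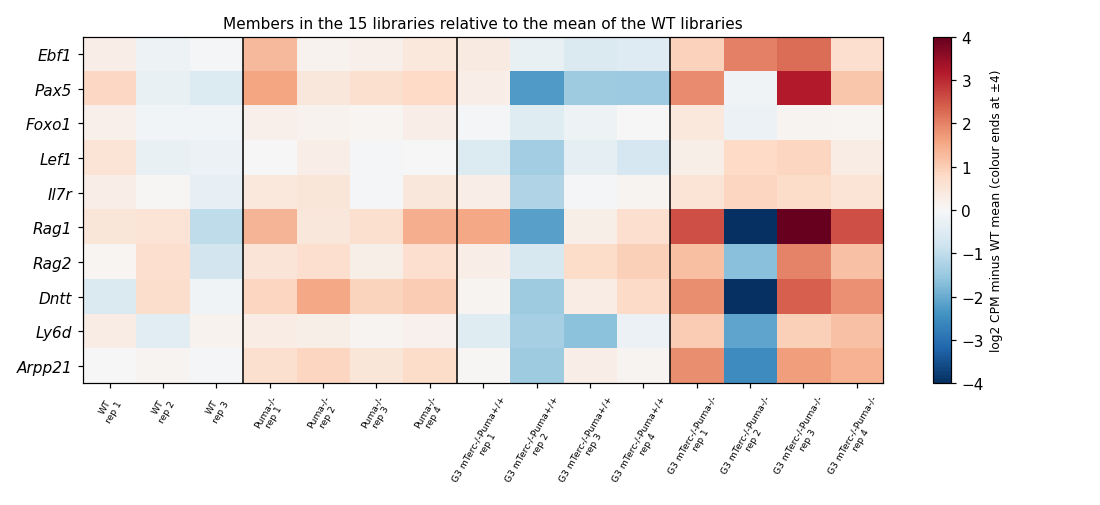
Log2 CPM of the 10 genes (rows) in the 15 libraries (columns) minus the mean of the WT libraries, with colours ending at 4 in each direction. Replicates 1, 3 and 4 of the double-knockout label are red for most genes, and replicate 2 is red for Ebf1, Lef1 and Il7r and dark blue for Rag1 and Dntt.

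The other comparisons had smaller medians, and 0 of 10 genes passed the adjusted test of edgeR in each of them. They share libraries with each other and with the comparison above. Puma-/- against WT had all 10 genes above 0, from 0.02 (Lef1) to 1.02 (Dntt) on the log2 scale, with a median of 0.52 beside 0.005 over all genes. At an unadjusted p under 0.05, 2 of 10 (Dntt and Arpp21) were higher beside 5.77% of all genes, and 0.0790% of all genes passed after adjustment. The count of 2 became 0 with 15 libraries (beside 3.71%), with the Xist covariate (beside 4.70%), and without WT replicate 1, WT replicate 3 or Puma-/- replicate 2, and 1 without WT replicate 2, Puma-/- replicate 1 or Puma-/- replicate 4. DESeq2 and limma-voom also called 0 of the 10 after adjustment, beside 0.747% and 0.0579% of all genes.

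G3 mTerc-/-Puma+/+ against WT had a median of -0.16, from -1.05 (Pax5) to 0.42 (Rag1). Lef1 and Ly6d were lower at an unadjusted p under 0.05 beside 2.28% of all genes, 0.0369% of all genes passed after adjustment, and DESeq2 and limma-voom called 0 of the 10, beside 0.243% and 0.0316%. With 15 libraries 1 of the 10 (Lef1) was lower at an unadjusted p under 0.05, beside 1.51%, and without WT replicate 1 it was 1 (Ly6d). Against Puma-/- all 10 genes were lower in G3 mTerc-/-Puma+/+, with a median of -0.80 and a range of -1.88 (Pax5) to -0.11 (Rag2). Here 7 of 10 were lower at an unadjusted p under 0.05 beside 8.96% of all genes, and 6 of 10 lay below Puma-/- without overlap beside 5.41%. After adjustment 0.801% of all genes passed and the lowest p among the 10 was that of Ly6d (edgeR, adjusted p = 0.0684), while DESeq2 called 4 (Pax5, Lef1, Ly6d and Arpp21) beside 5.82% of all genes, and limma-voom 1 (Ly6d) beside 0.832%. Cell sex nearly followed these 2 groups. With the Xist covariate the 7 genes at an unadjusted p under 0.05 became 4 (Ebf1, Pax5, Lef1 and Ly6d) beside 5.65% of all genes, and the 152 genes called after adjustment became 18. With 15 libraries 4 of the 10 were lower (Ebf1, Pax5, Foxo1 and Lef1) beside 6.37%.

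The double-knockout-labelled libraries were higher than WT for all 10 genes, with a median of 1.43 and a range of 0.19 (Foxo1) to 3.23 (Rag1). At an unadjusted p under 0.05, 7 of 10 were higher beside 3.71% of all genes, 8 of 10 lay above WT without overlap beside 5.55%, and 0.0632% of all genes passed after adjustment. DESeq2 called 3 (Rag1, Dntt and Arpp21) beside 0.490% of all genes and limma-voom 0 beside 0.0685%. With 15 libraries 4 of 10 were higher at the unadjusted threshold (Ebf1, Pax5, Il7r and Rag1) beside 7.04%, and 2 of 10 (Ebf1 and Il7r) lay above WT without overlap beside 4.09%. The median was then 1.16.

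Against Puma-/- the median of the double-knockout-labelled libraries was 0.88, from 0.01 (Foxo1) to 2.30 (Rag1). There 7 of 10 were higher at an unadjusted p under 0.05 beside 3.51% of all genes, 6 of 10 lay above without overlap beside 4.76%, 0.306% of all genes passed after adjustment, and DESeq2 called 1 (Arpp21) beside 1.51% and limma-voom 0. With 15 libraries 1 of 10 (Ebf1) was higher at the unadjusted threshold beside 4.17%, 1 of 10 (Il7r) lay above Puma-/- without overlap beside 1.72%, and the median was 0.54. The count of 7 was 3 (Rag1, Ly6d and Arpp21) without replicate 3 of the double-knockout label or without Puma-/- replicate 3, and 4 without Puma-/- replicate 4.

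The interaction of mTerc and Puma asks whether the difference made by the Puma label was larger among mTerc-/- than among mTerc+/+ libraries. All 10 values were above 0, from 0.20 (Foxo1) to 2.42 (Pax5), with a median of 1.06 beside -0.006 over all genes. Pax5, Lef1, Ly6d and Arpp21 were higher at an unadjusted p under 0.05 beside 2.40% of all genes. None of the 10 passed after adjustment in edgeR (0.0527% of all genes did), with Ly6d the lowest (edgeR, adjusted p = 0.335), while DESeq2 called 1 (Ly6d) beside 0.338% of all genes and limma-voom 0 beside 0.0263%. With 15 libraries 3 of 10 (Ebf1, Pax5 and Lef1) were higher at the unadjusted threshold beside 2.00%, and the median was 0.95. Ly6d and Arpp21 were no longer past it (edgeR, unadjusted p = 0.0815 and 0.438).

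**Figure D4:**
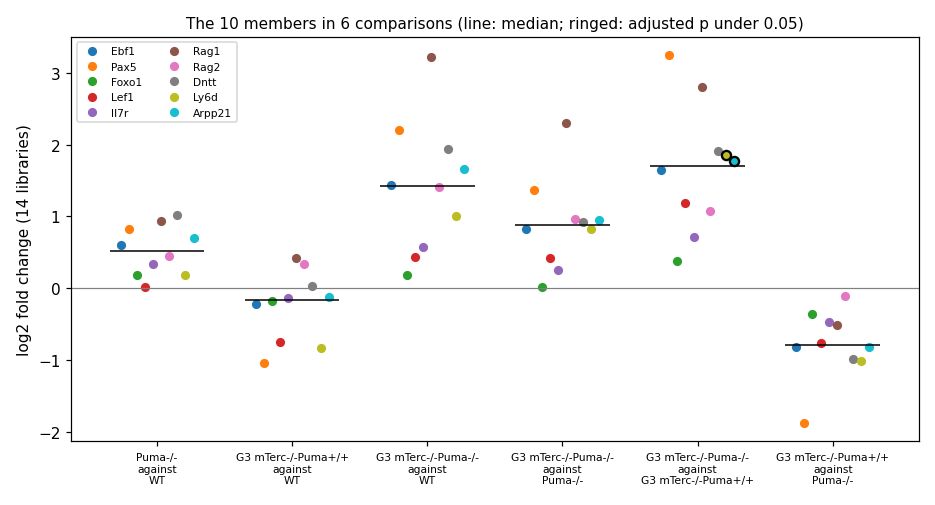
Log2 fold change (y axis, 14 libraries) of each of the 10 genes in the 6 pairwise comparisons (x axis), with the median as a line. A black ring marks an adjusted p under 0.05 in edgeR, which only Ly6d and Arpp21 have, in the comparison of the double-knockout-labelled libraries with G3 mTerc-/-Puma+/+, where the median is highest at 1.71.

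Genes of the next step, the pre-B receptor stage, were read from the same fit. Of 14 such genes, 4 rose after adjustment in the double-knockout-labelled libraries against G3 mTerc-/-Puma+/+ and 0 fell, beside 0.0738% of all genes called. At an unadjusted p under 0.05, 10 were higher beside 4.37% of all genes, and the list's median log2 difference was 1.38. Igll1, which encodes a chain of the surrogate light chain, rose from 1.10 ± 0.349 CPM (SD, n = 4) to 8.48 ± 6.80 CPM (SD, n = 3), by 2.95 on the log2 scale (edgeR, adjusted p = 0.0393). Its 3 values were 4.16, 16.3 and 4.96 CPM, and without replicate 3 the difference was 2.04 and did not pass (edgeR, adjusted p = 0.0634). The signalling genes Blnk, an adaptor of the pre-B receptor, and Blk, a SRC family kinase, rose by 1.79 and 2.15 (edgeR, adjusted p = 0.0128 and 0.0468), and Fcrla, an Fc receptor-like protein of B cells, by 1.38 (edgeR, adjusted p = 0.00636).

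Over the 14 single omissions Fcrla kept its call in 14, Blnk in 13, Igll1 in 4 and Blk in 2. All 4 calls were lost with the compared groups alone (edgeR, adjusted p = 0.248 for Fcrla and Blnk, 0.265 for Igll1 and 0.310 for Blk). Igll1 also lost its call with limma-voom and with the replicate block, and Blk with library size alone and with the stricter filter on mean counts. DESeq2, DESeq2 size factors in edgeR, no count filter and the Xist covariate kept all 4. With 15 libraries 1 of these 14 genes passed, Blnk (edgeR, adjusted p = 0.0471), beside 0.0313% of all genes. In replicate 2, Igll1 was at 0.970 CPM and Blk at 1.44 CPM, both within the range of G3 mTerc-/-Puma+/+. Against Puma-/-, 3 of the 14 fell in G3 mTerc-/-Puma+/+ (Blk, Blnk and Fcrla) beside 0.801% of all genes called, with log2 differences of -1.84, -1.10 and -1.31. Fcrla also fell in G3 mTerc-/-Puma+/+ against WT, by 1.15 (edgeR, adjusted p = 0.0225). Between the double-knockout-labelled libraries and WT, Fcrla differed by only 0.23 on the log2 scale (edgeR, unadjusted p = 0.208). Igll1 rose in the double-knockout-labelled libraries against Puma-/- too, by 2.46 (edgeR, adjusted p = 0.0363). Ms4a1 (CD20), from a list of mature B cell genes, fell in G3 mTerc-/-Puma+/+ against Puma-/-, by 2.61 (edgeR, adjusted p = 0.000444).

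**Figure D5:**
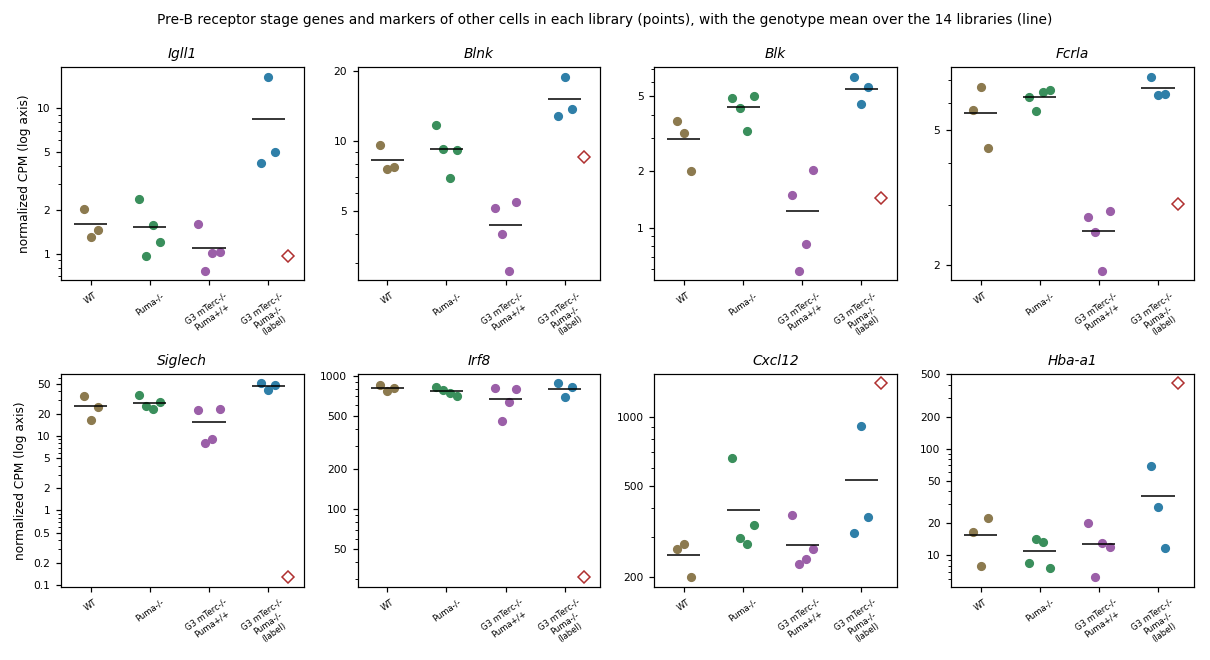
Normalized CPM (log axis) of 4 pre-B receptor stage genes (top) and of 4 markers of other cells (bottom: Siglech, plasmacytoid dendritic cells; Irf8, monocytic and dendritic progenitors; Cxcl12, stroma; Hba-a1, erythroid cells) in the 15 libraries, with the genotype mean over the 14 libraries as a line. The G3 mTerc-/-Puma+/+ points lie below the filled points of the double-knockout-labelled libraries in the top panels, and the open red symbol, replicate 2, has the lowest Siglech (0.128 CPM) and Irf8 (31.1 CPM) and the highest Cxcl12 (1400 CPM) of all.

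Upstream and partner genes were read from the same fit. Of 16 other factors of lymphoid and B specification, 0 passed after adjustment between the double-knockout-labelled libraries and G3 mTerc-/-Puma+/+. At an unadjusted p under 0.05, 3 were higher (Irf4, Pou2af1 and Id3) beside 4.37% of all genes, and the median log2 difference was 0.15. The most abundant were Irf8, at 674 ± 166 CPM in G3 mTerc-/-Puma+/+ and 795 ± 92.0 CPM in the double-knockout-labelled libraries, and Myb, at 372 ± 65.2 and 341 ± 26.3 CPM. Of 10 genes of interleukin 7 receptor signalling, 0 passed and 0 were past the unadjusted threshold, with a median of 0.08. Mcl1, a survival factor of the BCL-2 family, had 273 ± 27.4 and 301 ± 65.8 CPM, and Ccnd3, a cyclin, 280 ± 34.4 and 298 ± 41.6 CPM. Of 12 genes of the machinery that joins V(D)J ends in all cells, 0 passed, 6 were above 0 and the median was 0. Hmgb2, which helps RAG bind DNA, was at 1010 ± 79.9 and 1030 ± 43.8 CPM, and Hmgb1 at 594 ± 32.1 and 590 ± 45.2 CPM.

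Markers of other cells were read beside these results. Of 8 plasmacytoid dendritic cell genes, 0 passed after adjustment, and all 8 were above 0, with a median of 0.85. At an unadjusted p under 0.05, 6 were higher in the double-knockout-labelled libraries than in G3 mTerc-/-Puma+/+, beside 4.37% of all genes. Siglech was at 15.6 ± 8.18 CPM in G3 mTerc-/-Puma+/+ and 46.7 ± 4.83 CPM in the double-knockout-labelled libraries, and the summed level of the list, most of it Ly6c2, was at 1440 to 1810 and 1770 to 1840 CPM (1000 CPM in replicate 2). These cells can express Dntt, the Rag genes and Ly6d, and their part in the differences of the 10 genes was not tested.

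Of 13 T cell genes tested, 2 were higher at an unadjusted p under 0.05, beside 4.37% of all genes, and none passed. Their summed levels were 56.2 to 289 CPM in G3 mTerc-/-Puma+/+ and 153 to 274 CPM in the double-knockout-labelled libraries. Of 8 mature B cell genes, 2 were higher at an unadjusted p under 0.05 and none passed (27.2 to 52.4 and 46.5 to 64.1 CPM summed). Of 7 lymphoid-primed progenitor genes, 1 was (698 to 1020 and 941 to 1150 CPM), and of 9 innate lymphoid and NK cell genes 0 were (434 to 487 and 381 to 512 CPM). Of 9 erythroid genes 3 were (263 to 321 and 312 to 367 CPM), of 9 granulocyte and monocyte genes 1 (18300 to 26700 and 15700 to 22200 CPM), of 8 stem and early progenitor genes 1 (414 to 557 and 464 to 517 CPM), and of 12 stromal and endothelial genes 5 (531 to 3070 and 723 to 1690 CPM). None of these passed after adjustment, and the markers at 0 counts in at least 1 library were Klk1 (replicate 2 of the double-knockout label alone), Ptcra and Ebf2. Their part in the levels of the 10 genes was not tested.

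The genes whose pattern over the 14 libraries was most like the mean of the 10 (Pearson correlation of log2 CPM with the mean z-score) were Chst3 (0.962), Snn (0.940), Pltp and Scn4b (0.924 each), Sdc4 (0.921), Gfra2 (0.917), Gfra1 (0.914), Fam167a (0.913), Adam6b (0.907) and Lilra5 (0.906). Chst3, a sulfotransferase, averaged 1.03 ± 0.404 CPM in G3 mTerc-/-Puma+/+ and 3.75 ± 1.27 CPM in the double-knockout-labelled libraries, and Pltp, which carries phospholipids between lipoproteins, 1.82 ± 1.18 and 6.93 ± 1.89 CPM. Of these 10, 4 were also among the 10 most alike over 15 libraries.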

How the data were processed

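RNA from Lin- bone marrow cells was sequenced in 15 libraries, and the genotype and replicate number of each were taken from its title. Per the study's methods, libraries were poly(A)-selected and stranded, reads were trimmed with Trimmomatic (0.38) and aligned and counted with STAR (2.5.2b) on GRCm38/mm10, as the submitters' processing notes also list. The annotation release and the strand setting are not given in the sources used here. The deposited values are the authors' raw counts per Ensembl gene. Of 45706 identifiers, 563 had no symbol in GENCODE vM21 and held 0.0643% of the counts.

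The members and lists were chosen with earlier results of these data known, and the stromal list was added after seeing the data. In the pre-B receptor list, 1 gene is not reported here and was left out of its counts. Tests used edgeR 4.0.16 (R 4.3.3): TMM scaling (factors 0.937 to 1.08), filterByExpr, all 4 genotypes in 1 quasi-likelihood fit of 14 libraries, and Benjamini-Hochberg adjustment over 18983 genes (19146 with 15 libraries) at 0.05, for 7 comparisons (biological coefficient of variation 0.251, or 0.300 with 15). Errors of fold changes are SE, derived from the F statistic. Printed CPM use TMM factors over all 15 libraries, and log2 CPM a prior count of 2. limma 3.58.1 and DESeq2 1.42.0 were alternatives. Scripts were tested on simulated data. Every member was named, other lists' genes where they passed (at most 5 a list) and otherwise the 2 most abundant, and further names were chosen after their values were seen. No pair of replicate libraries agreed within sampling noise.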

Additional observations from a re-analysis of the deposited data

Results flagged for a closer look

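Of 30 groups of 4 libraries tested for a sample far from the others (10 genes in Puma-/-, G3 mTerc-/-Puma+/+ and the 4 double-knockout-labelled libraries), 5 held one. Chance gives about 1 in 20 groups if the groups are independent, but these share their libraries. The rule did not flag Dntt in replicate 2 of the double-knockout label, at 0.323 CPM beside 100 to 148 CPM in replicates 1, 3 and 4. Ebf1 was at 4.34 CPM in Puma-/- replicate 1, with the nearest other at 2.32 CPM, and the stromal gene Cxcl12 was at 665 CPM in that library beside 279 to 337 CPM in the other 3 (its part was not tested). Pax5 was at 1.07 CPM in G3 mTerc-/-Puma+/+ replicate 1, with the nearest at 0.320 CPM. Il7r was at 11.4 CPM in Puma-/- replicate 3, with the nearest at 16.0 CPM, and Dntt at 83.9 CPM in Puma-/- replicate 2, with the nearest at 57.1 CPM. Ly6d was at 7.03 CPM in replicate 2 of the double-knockout label, with the nearest at 58.6 CPM.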

How the results depend on the processing

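The 2 genes called between the double-knockout-labelled libraries and G3 mTerc-/-Puma+/+ became 0 with all 15 libraries, with limma-voom and 15 libraries, and with the compared groups alone. They became 1 with library size alone, with a mean of at least 50 counts and with the replicate block (Ly6d each time), 7 with DESeq2, and 0 to 2 with 1 library left out. DESeq2 size factors in edgeR, no count filter, limma-voom, the Xist covariate and DESeq2 with 15 libraries gave 2 or 3. Against WT, the 0 genes called in the double-knockout-labelled libraries became 3 with DESeq2, 1 with DESeq2 and 15 libraries, and 0 to 2 with 1 library left out (2 without G3 mTerc-/-Puma+/+ replicate 2, Dntt and Arpp21). Against Puma-/- they became 1 with DESeq2, 1 with the compared groups alone, and 0 to 1 with 1 library left out (Arpp21 without G3 mTerc-/-Puma+/+ replicate 2). G3 mTerc-/-Puma+/+ against Puma-/- gave 4 with DESeq2 and 1 with limma-voom, and the interaction 1 with DESeq2. Fits with 15 libraries in DESeq2 or limma-voom were chosen after seeing the data.

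Some differences changed sign. Lef1 in Puma-/- against WT was -0.03 with the Xist covariate and -0.131 to 0.33 with 1 library left out. Foxo1 in the double-knockout-labelled libraries against Puma-/- was -0.078 with 15 libraries, -0.079 with limma-voom and 15, -0.072 with DESeq2 and 15, -0.04 with the replicate block, and -0.099 to 0.075 with 1 library left out. Rag1 in that comparison, 2.30 with 14 libraries in edgeR, was -0.215 with limma-voom and 15 libraries. Rag1 in G3 mTerc-/-Puma+/+ against WT was -0.174 to 0.78, and Rag2 in G3 mTerc-/-Puma+/+ against Puma-/- -0.33 to 0.133, with 1 library left out, and Rag2 there was 0.035 with the Xist covariate. The cause of these changes was not tested. No difference of the 10 genes between the double-knockout-labelled libraries and G3 mTerc-/-Puma+/+ changed sign under any alternative, but some became much smaller. Apart from single omissions, the lowest log2 differences were 0.01 for Dntt, 0.69 for Rag1 and 0.36 for Rag2. In the main fit they were 1.91, 2.81 and 1.08.

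Of 18 pairs of libraries with the same replicate number in 2 genotypes, correlations of deviations were -0.253 to 0.175 and 3 were above 0.1. Pairs with different numbers were not compared, so this check cannot tell whether replicate numbers mark a shared batch. With the replicate block, the 152 genes called in G3 mTerc-/-Puma+/+ against Puma-/- became 43. The count of 3 libraries in the double-knockout-labelled group limits the precision. Ebf1, Pax5, Lef1, Rag1, Rag2 and the called gene Arpp21 were at low levels, a few CPM or less in most libraries. The SE did not simply follow the level. In the main fit it was 0.657 for Rag1 and 0.617 for Pax5, but 0.258 for Lef1 and 0.291 for Arpp21. The more abundant Dntt had 0.396.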
